A study of Mus musculus with 6 samples.

Results

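The clustered protocadherins were followed in cultured cerebellar granule cells (GCs) after KD of YTHDF2. A gene was taken as a member when its GRCm38 symbol named it as an alpha, beta or gamma protocadherin of the cluster and its annotation was protein-coding, which gave 57 of the 53421 genes in the table of counts. The alpha cluster held 14 members, of which 2 were the C-type isoforms Pcdhac1 and Pcdhac2. The beta cluster held 22 members. The gamma cluster held 21 members, with 12 of the A subfamily, 6 of the B subfamily and the 3 C-type isoforms Pcdhgc3, Pcdhgc4 and Pcdhgc5. All lie on the plus strand of mouse chromosome 18 in GRCm38, with the alpha genes between 36930184 and 37187661, the beta genes between 37264938 and 37524479 and the gamma genes between 37661793 and 37841873.

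RNA-seq was done on 3 libraries of GCs infected with lentiviral shYthdf2, named as KD in the column names, and 3 libraries of GCs infected with lentiviral shCtrl, both numbered 1, 2 and 4. All cells came from the cerebellum of wildtype C57BL/6 mice at postnatal day 8 by the labels and were grown in Neurobasal A medium with B27. Both groups thus carried a lentivirus and an shRNA, and the only difference the labels give is the target of the shRNA. Infected cells were selected with puromycin, and the study's methods call the libraries of a group biological replicates. No label ties a library to a separate animal or culture, so the tests measure the spread between these libraries, which may be technical. The sample titles call the shYthdf2 libraries wildtype and the shCtrl libraries KD, opposite to the column names. The column names were followed here, and every direction would turn over if the titles were right. In bulk cultures, fewer cells of a type and less RNA per cell cannot be told apart.

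Ythdf2 itself, the targeted reader of m6A, had normalized counts of 501, 402 and 501 in the libraries labelled shYthdf2 1, 2 and 4 and of 618, 841 and 628 in those labelled shCtrl. All 3 libraries named for KD were below all 3 named for control, with a log2 fold change of -0.57 ± 0.16 (SE) and an adjusted p of 0.125 in edgeR's quasi-likelihood test.

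Clustered protocadherins are cell surface proteins of the cadherin superfamily that bind the same isoform on a neighbouring cell, and the set of isoforms on a neuron gives it an identity that lets its own branches avoid each other. In the alpha and gamma clusters each variable exon has its own promoter, encodes the extracellular, transmembrane and first cytoplasmic part, and is spliced to constant exons shared by the whole cluster, while each beta gene is a single unit. Neurons choose among the variable promoters largely at random, with CTCF and cohesin looping a promoter to a distant enhancer, whereas the C-type isoforms are used in a more regular way. In the cerebellum the gamma proteins are known for the self-avoidance of Purkinje cell dendrites. YTHDF2 binds m6A-modified mRNAs and is known to promote their decay.

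The shared exons limit what a count says about 1 isoform. Reads from constant exons fit every gene of a cluster and are lost when only unambiguous reads are counted, so a length was used that held only the exon bases no other gene covers on either strand, since the strand setting of the counting is not given. The normalized count per kilobase of own exon is called the level below. It was not defined for Pcdhga10, whose 4732 exon bases are all covered by other genes, though 2613 are free on its own strand, and which had 0 counts in every library. Pcdha4 kept 404 own bases of 5768 and had 2 to 8 counts. A second gene with the symbol Pcdha11, beside the tested one, kept 1268 of 7535 and had 0 to 5 counts. Pcdhb1, the first beta gene, is covered by no other gene over its 2588 exon bases and had at most 1 count. These 4 members did not pass the filter on low counts and were not tested. If strand was ignored in counting, the 0 of Pcdhga10 is not a measure of its expression. The other 53 members were tested, 12 in the alpha, 21 in the beta and 20 in the gamma cluster.

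Total counts ranged from 17246821 to 21546595, and members took 13533 to 16934 of them. Replicate 2 stood apart in both groups. Over the 17214 genes tested, the chi-square per degree of freedom between replicates 1 and 4 was 3.34 in shYthdf2 and 4.64 in shCtrl, and between replicate 2 and either of them it ranged from 32.9 to 54.8. Over the 53 members, shCtrl replicates 1 and 4 differed by no more than counting noise (0.835 per degree of freedom), while shYthdf2 replicates 1 and 4 differed by more (1.47). All 12 granule cell markers were tested, with summed normalized counts of 157975 to 163417 in shYthdf2 and, without overlap, of 166262 to 184606 in shCtrl. The single markers were split in sign, with 6 log2 fold changes above 0 and 6 below and a median of 0.023. At an unadjusted p under 0.05 (edgeR), 0 of them were higher and 4 lower, beside 9.5% and 10.6% of all genes tested. Markers of other cells were present as well. The 8 oligodendrocyte lineage markers, all tested and none at 0, summed to 12921, 16946 and 13286 in shYthdf2 replicates 1, 2 and 4 and to 5016, 16685 and 4785 in those of shCtrl. The 9 astrocyte and Bergmann glia markers, likewise none at 0, summed to 13552, 12325 and 13371 in shYthdf2 and to 8854, 15039 and 8981 in shCtrl. The sums of the proliferating progenitor, unipolar brush cell, microglia, and vascular and fibroblast markers overlapped between the groups.

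The C-type isoforms Pcdhgc3 and Pcdhac2 were the most highly expressed members per own kilobase. In shCtrl, Pcdhgc3 had a level of 515 ± 91.5 (SD, n = 3), higher than 85.6% of the protein-coding genes tested. Pcdhac2 followed with 448 ± 19.1, and these levels did not differ beyond the spread of Pcdhgc3. Pcdhgc4 came next at 248 ± 122, with a wide spread over the 3 libraries, beside Pcdhga11 at 235 ± 27.8. The levels of Pcdhgc3 and Pcdhga11 depend on exons covered on the opposite strand. Over the bases free on the same strand they were 277 and 112, which put Pcdhgc3 below Pcdhac2 and Pcdhga11 below Pcdhga4 and Pcdhga6. The remaining C-type isoforms were low, with levels of 42.5 ± 15.4 for Pcdhac1 and 32.1 ± 2.21 for Pcdhgc5.

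The 5 C-type isoforms took 22.6% of the mean normalized counts of all members in shCtrl. By cluster, alpha genes took 22.0%, beta genes 40.2% and gamma genes 37.8%, shares that also reflect how many own bases each cluster has. Within the alpha isoforms other than C-type, the highest levels in shCtrl were those of Pcdha12 at 154 ± 20.9, Pcdha9 at 139.9 ± 13.3 and Pcdha3 at 114 ± 30.1. The lowest of the tested alpha isoforms had a level of 21.2. Among beta genes, Pcdhb17 at 149 ± 19.7, Pcdhb9 at 134 ± 8.60 and Pcdhb20 at 129.5 ± 5.62 were highest and lay within their spread of each other, and the lowest tested gene was at 28.8. In the gamma A subfamily Pcdhga4 at 141 ± 5.61 and Pcdhga6 at 140.1 ± 29.5 followed Pcdhga11 per own kilobase, and in the gamma B subfamily Pcdhgb6 at 167 ± 17.6 stood above Pcdhgb2 at 96.2 ± 5.21 and Pcdhgb7 at 76.4 ± 10.1.

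**Figure D1:**
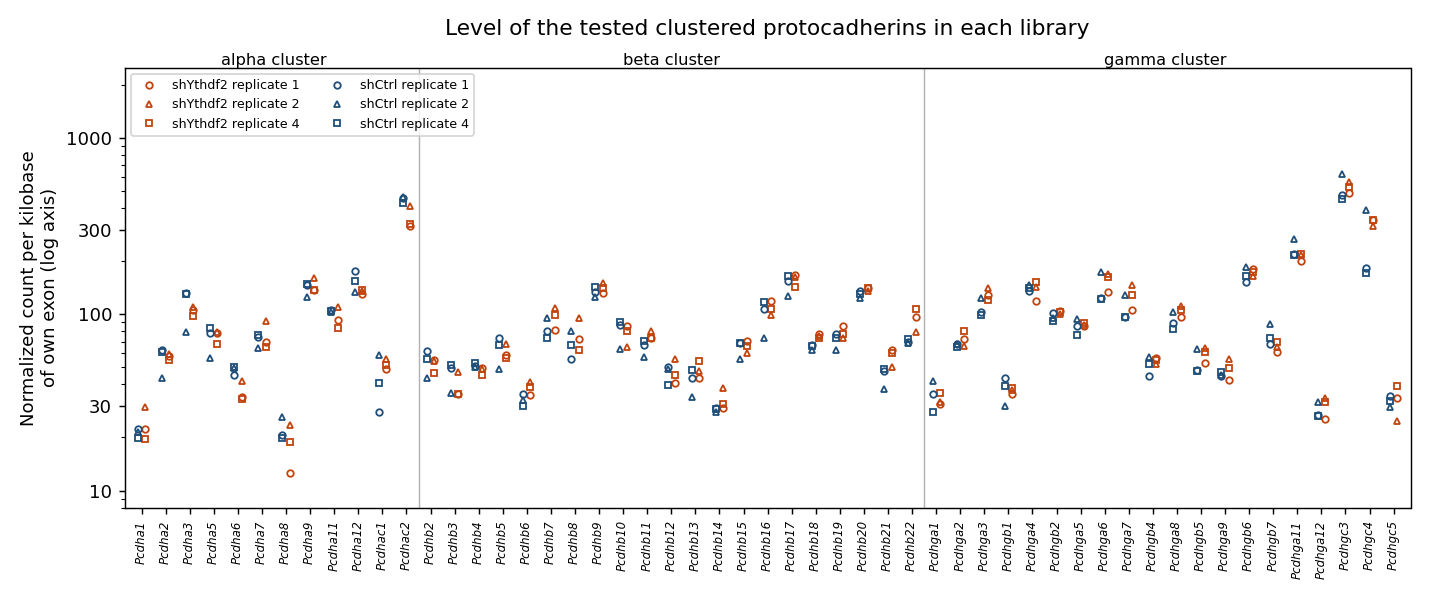
Level of each of the 53 tested members, in locus order on the horizontal axis, as normalized count per kilobase of own exon on a log axis, with 1 point per library. Pcdhac2 and Pcdhgc3 stand above the rest, and the shCtrl points of Pcdhgc4 split into 1 high library (replicate 2) and 2 low ones.

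Whether KD of YTHDF2 shifted these mRNAs was asked by comparing the 3 shYthdf2 with the 3 shCtrl libraries across all genes. No member passed an adjusted p of 0.05, where 0.604% of the 17214 genes tested did (104 genes, edgeR). At an unadjusted p under 0.05 there were 2 members, Pcdhb22 higher and Pcdhac2 lower, which is 3.77% of 53 beside 20.1% of all genes tested. DESeq2 and limma-voom also called 0 members at the adjusted threshold, beside 8.88% and 0.139% of the genes they tested. No member had an absolute log2 fold change over 0.5, where 22.9% of all genes tested did. The 95% interval lay within a 2-fold change either way for 52 of the 53 members, beside 63.5% of all genes tested, and within a 1.5-fold change for 34. The exception was Pcdhgc4, whose interval reached 1.13 on the log2 scale.

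**Figure D2:**
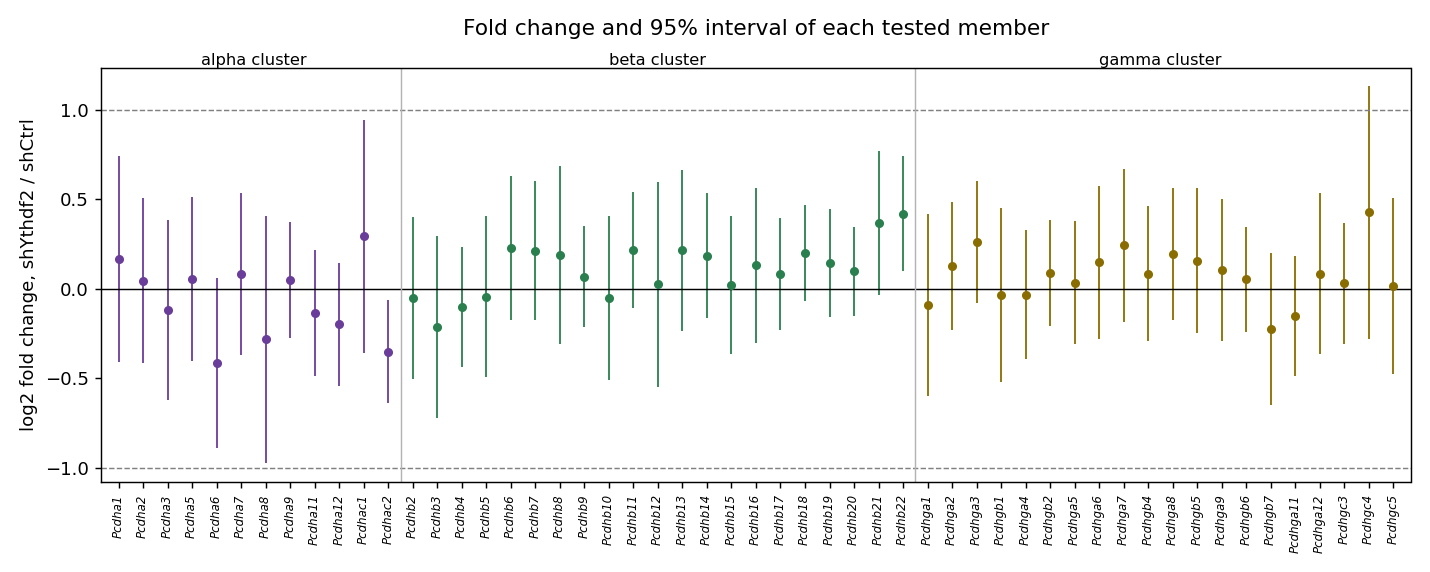
The log2 fold change (shYthdf2 over shCtrl) of each tested member in locus order, with points for the edgeR estimate and bars for its 95% interval. Dashed lines mark a 2-fold change. All intervals but that of Pcdhgc4 stay between the lines, and those of Pcdhac2 and Pcdhb22 leave out 0.

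By cluster, the median log2 fold change was -0.036 for the alpha genes, 0.13 for the beta genes and 0.085 for the gamma genes, beside 0.0082 for all genes tested. Of the tested members, 6 of 12 alpha, 16 of 21 beta and 15 of 20 gamma genes had a value above 0. Of all genes tested, 50.8% did. Summed over the members, normalized counts were 6723, 6718 and 6592 for the beta cluster in shYthdf2 and 6317, 5501 and 6414 in shCtrl, without overlap. The sums of the alpha cluster were 2811, 3338 and 2779 against 3442, 3166 and 3362, and those of the gamma cluster 5964, 6362 and 6408 against 5216, 6801 and 5091. In both sums the groups overlapped, and the position of shCtrl replicate 2 differed. It was the lowest control in the alpha and beta sums and the highest of all 6 libraries in the gamma sum. The 7 GABAergic interneuron markers, all tested and none at 0, summed to 12178, 14732 and 12176 in shYthdf2 and to 8673, 11112 and 8448 in shCtrl, so that their groups did not overlap either. The same held for the 7 Purkinje cell markers, of which 6 were tested, at 4316 to 4549 and 3046 to 3451. Single markers went both ways in sign, and a sum follows its most abundant genes. Of the GABAergic markers 5 had a log2 fold change above 0 and 2 below, and of the tested Purkinje markers 3 above and 3 below. At an unadjusted p under 0.05 (edgeR), 2 of the 7 GABAergic and 2 of the 6 tested Purkinje markers were higher and 0 lower. The shares of all genes tested were 9.5% higher and 10.6% lower. The part of other cell types in the cluster sums was not tested.

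Among the 5 C-type isoforms none passed the adjusted threshold, and Pcdhac2 was the one with an unadjusted p under 0.05. Pcdhac2, the last alpha promoter and known from the tiling of serotonergic axons, had normalized counts of 963, 1242 and 986 in shYthdf2 replicates 1, 2 and 4 and of 1382, 1396 and 1289.7 in shCtrl. All 3 shYthdf2 libraries were below all 3 shCtrl libraries. The log2 fold change was -0.35 ± 0.12 (SE), with a 95% interval of -0.64 to -0.060 and an adjusted p of 0.179, so it did not pass. Its share of all alpha counts was 34.3%, 37.2% and 35.5% in shYthdf2 and 40.2%, 44.1% and 38.4% in shCtrl. These shares did not overlap either, but they rest on the same counts and are not a separate observation. Without replicate 2 of both groups the log2 fold change of Pcdhac2 was -0.46 with an adjusted p of 4.06e-06, where 52.7% of all genes tested passed. Without shYthdf2 replicate 2 alone it was -0.48 with an adjusted p of 0.0444, where 829 of 17654 genes passed. With a term for replicate 2 it was -0.36 with an adjusted p of 0.0273, where 22.1% of all genes passed (edgeR).

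Pcdhgc4, the gamma isoform known to be needed for the survival of neurons, showed the widest spread among the controls. Its normalized counts were 1185, 1095 and 1193 in shYthdf2 and 633, 1351 and 599 in shCtrl. Controls 1 and 4 were the lowest libraries and control 2 the highest of all 6, so the groups overlapped. The log2 fold change was 0.43 ± 0.30 (SE), with an adjusted p of 0.474. Without shCtrl replicate 2 it was 0.91 with an adjusted p of 0.00276, where 3239 of 17734 genes passed. Without replicate 2 of both groups it was 0.94 with an adjusted p of 4.76e-09, where 52.7% of all genes tested passed. In both fits the only controls were replicates 1 and 4, which over the members differed by no more than counting noise. Replicate 2 was left out after its values were seen. The oligodendrocyte lineage and the astrocyte and Bergmann glia marker sums given above were likewise lowest in controls 1 and 4 and high in the other 4 libraries, and their part in the values of Pcdhgc4 was not tested. Pcdhgc4 took 12.1% and 11.8% of all gamma counts in controls 1 and 4, 19.9% in control 2 and 17.2% to 19.9% in the shYthdf2 libraries.

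Pcdhac1 had 124, 143 and 132 in shYthdf2 and 71.8, 150.1 and 104 in shCtrl, and control 2 was again the highest of all 6 libraries. Its log2 fold change was 0.29 ± 0.28 (SE) (adjusted p = 0.601, edgeR), and among the alternatives run it passed only without replicate 2 of both groups (0.55, adjusted p = 0.0193). That fit called 52.7% of all genes tested. Pcdhgc3, known to inhibit Wnt signaling through Axin1, had 885, 1027 and 963 in shYthdf2 and 862, 1129 and 822 in shCtrl. Its log2 fold change of 0.031 ± 0.15 (SE) had a 95% interval of -0.31 to 0.37. Pcdhgc5, the last gamma isoform, had 154, 114 and 181 in shYthdf2 and 158, 138 and 148 in shCtrl, and a log2 fold change of 0.018 ± 0.21 (SE). For both, the difference of the means was smaller than the spread of either group.

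**Figure D3:**
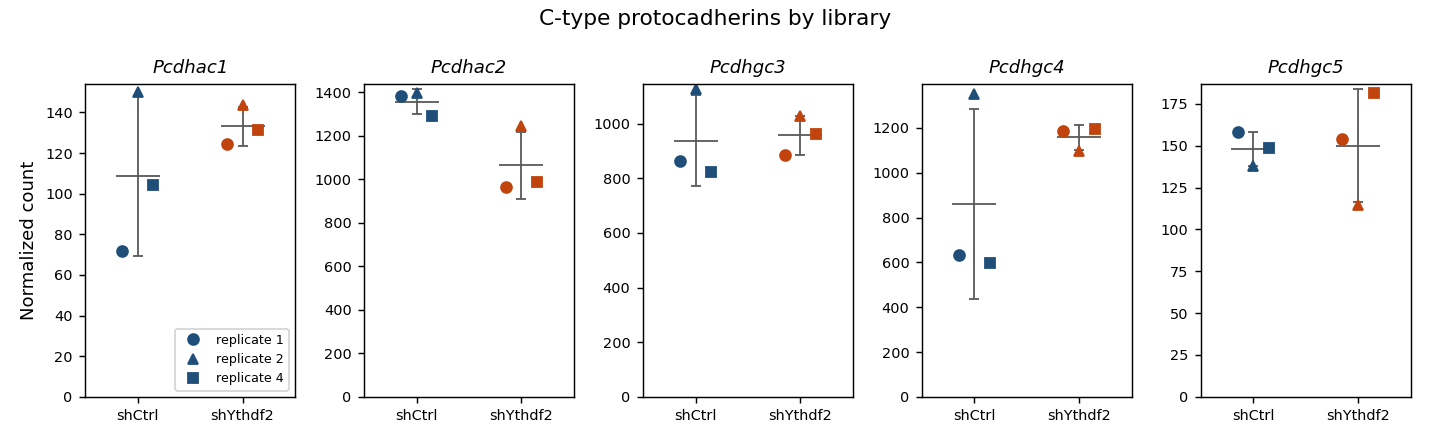
Normalized counts of the 5 C-type isoforms in each library, with marker shapes for replicates 1, 2 and 4, and the mean with its SD (n = 3) as a horizontal line with bars. Pcdhac2 is lower in every shYthdf2 library, while shCtrl replicate 2 (triangle) is the highest library for Pcdhac1, Pcdhac2, Pcdhgc3 and Pcdhgc4.

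The 10 tested alpha isoforms other than C-type were split, with 5 above and 5 below 0. Pcdha6 had the largest absolute difference, with 63.8, 78.5 and 62.6 in shYthdf2 and 85.2, 94.0 and 94.5 in shCtrl. Its groups did not overlap, and its log2 fold change was -0.41 ± 0.20 (SE) (adjusted p = 0.303, edgeR). It was 1 of 9 members whose groups did not overlap, which is 17.0% beside 26.0% of all genes tested. Pcdha8 (-0.28 ± 0.30 SE) and Pcdha12 (-0.20 ± 0.15 SE) came next in size and had overlapping groups. Pcdha9 (0.047) and Pcdha3 (-0.12) lay closer to 0.

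These alpha isoforms differed in sign by replicate number. Between same-numbered libraries, 9 of 10 were lower in shYthdf2 replicate 1 and 10 of 10 in replicate 4, while 8 of 10 were higher in replicate 2. The median log2 differences were -0.15 in replicate 1, 0.40 in replicate 2 and -0.20 in replicate 4, where those of all genes tested were 0.0089, 0.0012 and 0.0015. Pcdha3 is an example, with 326, 195 and 322 in shCtrl and 262, 272 and 241 in shYthdf2. Control 2 was low, and the other 2 controls lay above every shYthdf2 library. Without replicate 2 of both groups, all 10 were below 0 with a median of -0.21, and Pcdha3, Pcdha6 and Pcdha12 passed the adjusted threshold beside 52.7% of all genes tested in that fit. The alpha isoforms share their 3' exons and their libraries, so they are not independent of one another.

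The largest differences among the beta genes were those of the last 2 genes of the cluster. Pcdhb22, the last one, had normalized counts of 591, 489 and 655 in shYthdf2 and of 429, 420.4 and 446 in shCtrl. The groups did not overlap, and the log2 fold change was 0.42 ± 0.14 (SE) with a 95% interval of 0.10 to 0.74 and an adjusted p of 0.153. Its neighbour Pcdhb21 had 267, 213 and 257 in shYthdf2 and 203, 161 and 207 in shCtrl, also without overlap, with a log2 fold change of 0.37 ± 0.17 (SE) and an adjusted p of 0.285. The exons of the 2 genes overlap at 1 end, and 92.3% and 94.6% of the 100-base windows of their transcripts are found in no other gene. Both were higher in shYthdf2 in each of the 3 pairs of same-numbered libraries, and both passed in a fit with a term for replicate 2, with adjusted p of 0.0286 for Pcdhb22 and 0.0390 for Pcdhb21, beside 22.1% of all genes tested.

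Across the 21 tested beta genes, the groups did not overlap for 6 genes that were higher and 1 that was lower in shYthdf2, beside 12.6% and 13.4% of all genes tested. The higher genes were Pcdhb11, Pcdhb14, Pcdhb18, Pcdhb20, Pcdhb21 and Pcdhb22 and the lower one Pcdhb4, of which Pcdhb4 and Pcdhb14 are named because their groups were seen not to overlap. Apart from Pcdhb21 and Pcdhb22 these differences were small, from -0.10 for Pcdhb4 to 0.22 for Pcdhb11 on the log2 scale. Pcdhb18, for example, had 387, 378 and 367 in shYthdf2 and 338, 316 and 332 in shCtrl (0.20 ± 0.12 SE, adjusted p = 0.376, edgeR), and Pcdhb20 had 501, 482 and 498 in shYthdf2 and 481, 441 and 461 in shCtrl (0.10 ± 0.11 SE). Pcdhb6 had the third largest difference (0.23 ± 0.17 SE) with overlapping groups. The highly expressed Pcdhb17 (0.084) and Pcdhb9 (0.067) differed by less than their SE.

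Over the 21 tested beta genes, the log2 fold change correlated with the order of the genes along the cluster, with a Pearson r of 0.64 and a Spearman rho of 0.51. It is a description across genes that share the same 6 libraries. The corresponding rho was -0.26 over the 12 tested alpha and -0.059 over the 20 tested gamma genes, and without the C-type isoforms it was -0.47 over 10 alpha and -0.15 over 17 gamma genes. In replicate 2 the beta genes were higher in 20 of 21 cases, with a median log2 difference of 0.26, and in replicates 1 and 4 in 13 and 11 cases, with medians of 0.013 and 0.053. Of all genes tested, 50.7% were higher in replicate 2, 50.7% in replicate 1 and 50.1% in replicate 4. Control 2 was the lowest control for 17 of the 21 genes, beside 44.4% of all genes tested. Without replicate 2 of both groups the beta median was 0.041, with Pcdhb21 and Pcdhb22 past the adjusted threshold as higher and Pcdhb3 and Pcdhb5 as lower, the last 2 being named after their values were seen. That fit called 52.7% of all genes tested.

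In the gamma cluster the groups overlapped for all 20 tested genes. In the A subfamily the largest differences were those of Pcdhga3, Pcdhga7 and Pcdhga8. Pcdhga3 had 332, 367 and 313 in shYthdf2 and 266, 321 and 258 in shCtrl, with a log2 fold change of 0.26 ± 0.15 (SE) and an adjusted p of 0.360. Control 2 again lay above the other controls and within the range of the shYthdf2 libraries. Control 2 was also the highest control for Pcdhga7 (0.24 ± 0.18 SE), Pcdhga8 (0.19 ± 0.16 SE) and Pcdhga6 (0.15 ± 0.18 SE). Pcdhga11, the highest of the subfamily per own kilobase, had 249.9, 273 and 274 in shYthdf2 and 276, 335 and 274 in shCtrl (-0.15 ± 0.14 SE).

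The B subfamily showed small differences of both signs. Pcdhgb7 had 111, 119 and 127 in shYthdf2 and 124, 159.8 and 134 in shCtrl, with a log2 fold change of -0.23 ± 0.18 (SE) and an adjusted p of 0.533. Pcdhgb5 (0.16 ± 0.17 SE), Pcdhgb2 (0.089 ± 0.13 SE) and Pcdhgb6 (0.053 ± 0.13 SE) were within 1 SE of 0. For the whole gamma cluster, control 2 was the highest control for 15 of 20 genes, beside 44.8% of all genes tested, which is the reverse of the beta cluster. The 18 gamma genes that were higher in shYthdf2 in replicate 4 compare with 12 in replicate 1 and 8 in replicate 2. The shares of all genes tested were 50.1%, 50.7% and 50.7% in replicates 4, 1 and 2.

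**Figure D4:**
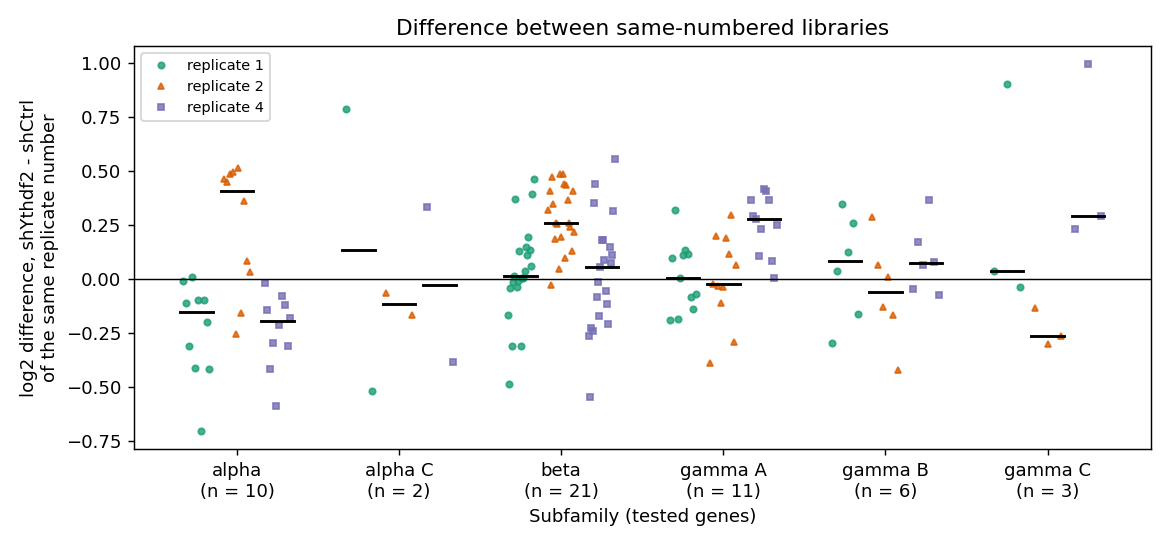
The log2 difference between shYthdf2 and shCtrl libraries of the same replicate number, by subfamily, with 1 point per tested gene and a bar at the median of each replicate. Alpha genes lie mostly below 0 in replicates 1 and 4 and above 0 in replicate 2, and the beta genes lie highest in replicate 2.

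Of all 53 tested members, 19 had the same sign in the 3 same-numbered pairs, beside 53.9% of all genes tested, and 21 had 1 sign in replicates 1 and 4 and the other in replicate 2, beside 28.3%. With the replicate number as a block, 0 members passed the adjusted threshold beside 1.35% of all genes tested, and 4 members had an unadjusted p under 0.05 beside 31.6%. These were Pcdhac2, Pcdhb21, Pcdhb22 and Pcdhga3, with blocked adjusted p of 0.0823, 0.105, 0.0792 and 0.147 (edgeR). Without replicate 2 of both groups, 12 members passed, which is 22.6% beside 52.7%. Of these, 6 were higher and 6 lower, beside 25.8% and 27.0% of all genes tested in that fit.

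The study also listed transcripts pulled down with YTHDF1 or YTHDF2 antibodies from separate material. Members in its YTHDF2 list were Pcdhga4, Pcdhga8 and Pcdhga9, and in its YTHDF1 list Pcdha3, Pcdhb21, Pcdhga6, Pcdhga8 and the Pcdha11 gene that was not tested here. Of the 100-base windows of Pcdhga4, Pcdhga8 and Pcdhga9, 62.7%, 44.7% and 37.4% also occur in other members. The lists may therefore not tell single isoforms apart. Here Pcdhga4 had a log2 fold change of -0.032 ± 0.15 (SE), Pcdhga8 of 0.19 ± 0.16 (SE) and Pcdhga9 of 0.11 ± 0.17 (SE), with adjusted p of 0.930, 0.535 and 0.760 in edgeR. Their 95% intervals were -0.39 to 0.33, -0.17 to 0.56 and -0.29 to 0.50.

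The regulators of the locus were measured in the same libraries. Of 23 genes, none passed the adjusted threshold, and 1 was higher and 3 were lower at an unadjusted p under 0.05, beside 9.5% and 10.6% of all genes tested. The architectural factor Ctcf (0.058 ± 0.093 SE) and the cohesin subunits Rad21 (0.11 ± 0.11 SE) and Smc3 (0.12 ± 0.12 SE) had differences of about their SE or less and are named for their role, after their values were seen. The higher gene was Tet1, which oxidizes 5-methylcytosine, with 1538, 1421 and 1627 in shYthdf2 and 908, 1106 and 918 in shCtrl (0.64 ± 0.12 SE, adjusted p = 0.0572). The lower genes were Wiz, a zinc finger protein found together with cohesin and CTCF (-0.66 ± 0.16 SE, adjusted p = 0.0976), the maintenance DNA methyltransferase Dnmt1 (-0.37 ± 0.12 SE, adjusted p = 0.159), and the corepressor Trim28 (-0.34 ± 0.089 SE, adjusted p = 0.109). For each of these 4 genes, which were picked by their p in the same comparison, the groups did not overlap. This held for 7 of the 23 regulators, which is 30.4% beside 26.0% of all genes tested.

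Of 21 genes for binding partners, effectors and processing enzymes of the protocadherins, none passed the adjusted threshold, and 2 were higher and 4 lower at an unadjusted p under 0.05. Together these are 28.6%, beside 20.1% of all genes tested, with 9.5% higher and 10.6% lower. Nlgn1, a postsynaptic adhesion protein, had 709, 846 and 685 in shYthdf2 and 339.7, 441 and 303 in shCtrl (1.05 ± 0.17 SE, adjusted p = 0.0522, and 0.0417 with the replicate block). The WAVE complex subunit Wasf1 was the other higher gene (0.27 ± 0.11 SE, adjusted p = 0.236). The lower genes included the receptor tyrosine kinase Ret (-0.45 ± 0.14 SE, adjusted p = 0.141), the Wnt pathway scaffold Axin1 (-0.30 ± 0.091 SE, adjusted p = 0.140) and Nlgn2 (-0.29 ± 0.10 SE, adjusted p = 0.156).

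The non-clustered protocadherins, which have their own full genes outside the 3 clusters, were measured beside the clustered ones. Of 11 tested, 7 were higher and 0 lower at an unadjusted p under 0.05, beside 9.5% and 10.6% of all genes tested, and 1 passed the adjusted threshold, beside 0.604%. The median log2 fold change was 0.65, where the clustered members had 0.082. The gene that passed was Pcdh17, with 1205, 992 and 1155 in shYthdf2 and 605, 612 and 602 in shCtrl (0.88 ± 0.11 SE, adjusted p = 0.0430). It is named because it was the only one past the threshold. The difference between the clustered and the non-clustered genes was not tested.

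Around the locus, 15 protein-coding genes that are not members lie inside its span or next to it, and 11 were tested. None passed the adjusted threshold, and 0 were higher and 2 lower at an unadjusted p under 0.05, beside 9.5% and 10.6% of all genes tested. Of the 11, 8 had a log2 fold change below 0 and 3 above, with a median of -0.16. Of all genes tested, 50.8% were above 0. Taf7, a TFIID subunit that lies between the beta and gamma clusters, had 201, 237 and 198 in shYthdf2 and 306, 246 and 365 in shCtrl, without overlap (-0.53 ± 0.18 SE, adjusted p = 0.173). Rell2, downstream of the gamma cluster, had 783, 982 and 924 in shYthdf2 and 1591, 1145 and 1547 in shCtrl, also without overlap (-0.67 ± 0.16 SE, adjusted p = 0.0883). Rell2 and Fchsd1 lie on opposite strands and overlap, and 1858 of the 3340 exon bases of Rell2 are its own. Fchsd1 (-0.54 ± 0.25 SE), Arap3 (0.31 ± 0.53 SE), Dnd1 (-0.16) and Wdr55 (-0.13) had overlapping groups. Diaph1 (-0.24) and Hdac3 (-0.14), which adjoin the 3' end, and Zmat2 (0.10), Hars2 (0.18) and Hars (-0.21), which adjoin the 5' end, were also measured. Of these, Hdac3 was lower in all 3 shYthdf2 libraries than in any control. With Taf7 and Rell2 this made 3 of the 11 tested neighbours without overlap, which is 27.3% beside 26.0% of all genes tested. The readthrough genes Gm42416, Gm37013 and Gm37388 inside the span had 0 counts in every library and no exon base of their own.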

How the data were processed

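RNA-seq counts of 6 libraries were used, 3 shYthdf2 and 3 shCtrl. The authors deposited whole-number counts per Ensembl gene without normalization. By the study's methods, HISAT and TopHat2 placed the reads on GRCm38 and HTSeq assigned them to genes, while the submitters' processing notes name Bowtie 0.12.2 and mm9. The methods and the labels also name different library kits, and a strand setting is not given in the sources used here. Symbols, positions and own exon bases came from the GRCm38 annotation of GENCODE, which lacks 1018 of the 53421 genes.

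Genes with at least about 10 counts in enough libraries (filterByExpr of edgeR 4.0.16 in R 4.3.3, minimum count 10, minimum total 15) were normalized by TMM and tested with edgeR's quasi-likelihood test without covariates, with Benjamini-Hochberg adjustment over all 17214 genes tested. Normalized counts are counts scaled to the mean effective library size. Differences of same-numbered libraries are on the log2 scale after adding 0.5. With 3 against 3 libraries an exact permutation test cannot go below p = 0.1, so none is given. Total counts per library were 17246821 to 21546595. Intervals are 95% intervals of the fold change. Deviations from the group means of libraries with the same number correlated at 0.252, 0.360 and 0.322 across genes (replicates 1, 2 and 4). A replicate 2 that stands apart in both groups would raise all 3 values. They therefore cannot show that the libraries numbered 1, or those numbered 4, are pairs. Differences of same-numbered libraries are descriptions. Alternatives were a replicate block, DESeq2 1.42.0, limma-voom (limma 3.58.1), other scalings and filters, a term for replicate 2 and leaving out libraries. The fits were tested on simulated data with independent libraries and no effect of replicate number. There edgeR without a block found 32.6% of the genes changed by 1 on the log2 scale and 78.5% of those changed by 2. Of its calls 7.14% were unchanged genes, and of those of DESeq2 28.9%.

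Named members are the C-type isoforms, in each other subfamily the 3 highest per own kilobase in shCtrl and the 3 with the largest absolute log2 fold change, the 10 smallest p-values, and those in the study's lists of bound mRNAs. Named besides them are regulators and partners at an unadjusted p under 0.05 and neighbours of the locus. Members and lists were chosen with earlier results of these data known. No sequence is shown. The values of 1 partner gene are not reported here.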

Additional observations from a re-analysis of the deposited data

How the results depend on the processing

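Each group holds 3 libraries, of which replicate 2 stood apart in both, and no label gives a reason for it. The alpha and gamma counts rest on each gene's own exons, so changes in the shared constant exons were not seen, and 4 members had too few counts for a test. The number of genes past the adjusted threshold was 104, and 1320 with DESeq2, 24 with limma-voom, 639 without a filter except a total above 0, 232 with the replicate block, 3799 with a term for replicate 2, 9186 without replicate 2 of both groups, and 0 to 3239 when 1 library was left out. The corresponding count of members was 0, and 3 with a term for replicate 2, 12 without replicate 2 of both groups and 0 to 1 when 1 library was left out, where Pcdhgc4 passed without shCtrl replicate 2 and Pcdhac2 without shYthdf2 replicate 2. Members at an unadjusted p under 0.05 numbered 2, and 4 with the replicate block, 6 with a term for replicate 2, 14 without replicate 2 of both groups and 0 to 8 when 1 library was left out. The alpha median moved from -0.036 to -0.21 without replicate 2 of both groups, and no other alternative moved a cluster median by more than the spread between libraries. The cause of these shifts was not tested.

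A change of sign occurred 18 times among the named members, each for a value that passed no threshold. Without replicate 2 of both groups the log2 fold change became -0.11 for Pcdha9, -0.048 for Pcdhb17, -0.029 for Pcdhb9 and -0.0010 for Pcdhga9. With library size alone it became 0.0036 for Pcdhga4. For Pcdhgc5 it was -0.013 with limma-voom and -0.0027 with the replicate block. With 1 library left out it ranged from -0.034 to 0.088 for Pcdha9, from -0.018 to 0.16 for Pcdhb17, from -0.11 to 0.065 for Pcdhga4, from -0.020 to 0.14 for Pcdhgb6, from -0.061 to 0.19 for Pcdhgc3 and from -0.14 to 0.18 for Pcdhgc5. A further 15 values of named members came to pass the threshold, all in fits that left out replicate 2 or gave it a term, and 402 kept their sign and their side of it. The replicate block changed no call of a named member. Per kilobase of all exon bases, the shCtrl level was 230.3 for Pcdhac2 and 170.5 for Pcdhgc3, so the order of these 2 depends on the length used. Counting as own every base free on the same strand was chosen after seeing the data, and lowered the level of Pcdhb12 to 16.9 and that of Pcdha12 to 121, below Pcdha9.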
